A study of Mus musculus with 24 samples.

Results

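RNA sequencing was used to ask which genes pioglitazone (PIO) alone changed within 6 h in the organ of Corti (OC), the hearing epithelium of the cochlea. OCs were dissected from C57BL/6N mice of both sexes at 5 days of age, kept in culture for 24 h, and then exposed to 10 μM PIO or left without drug (CTRL) for a further 6 h. The 3 PIO libraries (replicates 1 to 3) were compared with the 3 CTRL libraries, which together make 6 of the 24 libraries and 2 of the 8 groups of the series, and each library came from 6 pooled OCs. The members were chosen by the treatment and time in the sample labels, and all genes of the table were read. The other groups used below, for 2 further comparisons, were 50 μM gentamicin (GM) and both drugs together (PIO + GM) for 6 h, and PIO and CTRL for 24 h. The culture medium of all groups held penicillin and fetal calf serum. The labels do not say whether replicates came from separate litters or days, so that p-values measure the spread between these pools, which may be technical.

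PIO activates PPAR-γ, a transcription factor that responds to fatty acids and their derivatives. PPARs bind DNA as heterodimers with the retinoid X receptors (RXRs), hold corepressors when no ligand is present, and recruit coactivators when one binds. Among the genes they are known to activate are those for fatty acid uptake, storage in lipid droplets and oxidation in mitochondria and peroxisomes. PPAR-γ bound by an agonist is also known to restrain inflammatory genes of other transcription factors. The OC holds sensory hair cells and supporting cells, and its explants carry mesenchyme, nerve fibres with Schwann cells, and vessels.

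Library totals were 12660352, 11809855 and 12416638 counts in CTRL and 10993061, 9568348 and 13849198 counts in PIO, so 3 counts, taken as the floor of detection, stood for 0.217 to 0.314 CPM (counts scaled to library size) and cover counting error only. Defining markers of the labelled tissue were present. Per length of the gene, the hair cell genes Myo7a (4.07 to 12.6) and Otof (8.86 to 28.5) and the supporting cell genes Tecta (128 to 599.5) and Otoa (56.2 to 166) were read at these RPKM (CPM per kilobase of exon) over the 6 libraries. Markers of T cells (Cd3e, at most 5 counts), neutrophils (S100a8, at most 8) and muscle precursors (Myod1, at most 5) were near the floor. The libraries of PIO differed among themselves. PIO replicate 2 had the lowest total and the most genes with at least 1 count of the 6, 21793 against 20606 to 21499 in the others, and read 196 CPM over 1459 olfactory and vomeronasal receptor genes, which the OC is not known to express, against 81.6 and 137 CPM in the other PIO libraries and 92.9 to 113 CPM in CTRL. Counts of 4 Y-linked genes ranged from 4.5 to 244 CPM in CTRL and from 165 to 232 CPM in PIO, with CTRL replicate 2 the lowest, although the labels give both sexes for every pool. Calls are therefore also given without PIO replicate 2, and the plot of list medians shows them without it. Beside the median of a list, the lowest and highest median over 17 other settings follow as "between", which include leaving out each of the 6 libraries. In bulk tissue, fewer cells of a type and less RNA per cell cannot be told apart.

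At 6 h, PIO changed few genes past the threshold. Of 16317 genes tested by edgeR's quasi-likelihood test (Benjamini-Hochberg adjusted p under 0.05), 55 passed (0.337%), 24 higher (0.147%) and 31 lower (0.19%) with PIO than in CTRL. The highest-ranked gene was Cpt1a, the enzyme that admits long-chain fatty acids to mitochondrial oxidation, which rose 1.85-fold. Among the genes that fell were Plau, Axl, Pdgfra, Krt19, Krt80 and Cnn2, which act at the cell surface, in the matrix and in the cytoskeleton. Apart from Vtcn1, read at 1 to 2 counts with PIO, the genes that fell did so by 1.32- to 4.80-fold, and those that rose did so by 1.35- to 2.45-fold. The groups did not overlap in 55 of the 55 genes (15.4% of all genes tested), from which nothing is read, since these libraries chose the genes.

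These calls were close to the threshold. In 32 of the 55 genes, the adjusted p lay between 0.04 and 0.05. At an unadjusted p under 0.05, 1364 genes were higher (8.36%) and 1115 lower (6.83%). The number called differed with the libraries fitted. With only the 12 libraries of 6 h, edgeR's quasi-likelihood test called 0 genes, with 1415 at an unadjusted p under 0.05, and with only the 6 libraries compared it called 0, with 1121. On the 24 libraries, DESeq2's Wald test called 383 genes and edgeR's likelihood ratio test 211, which held 54 and 55 of the 55. Without PIO replicate 2, 19 genes passed, of which 14 were among the 55, and without CTRL replicate 1 or PIO replicate 1, 6 and 7 passed, all of them among the 55. Without CTRL replicate 2 or 3, 33 and 28 passed, and without PIO replicate 3, 120 passed, with 21, 22 and 38 of the 55 among them. Cpt1a, Krt19 and Ulk2 passed without each of the 6 libraries in turn, whereas Zfp811, H2bc4, Gbp6, Fam120c, Fgd3, Ldhd and Sumo3 lost their call whichever of the 6 was left out. Without TMM scaling, where the median log2 fold change of all genes was 0.04 in place of 0.00, 51 genes passed, 30 higher and 21 lower.

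**Figure D1:**
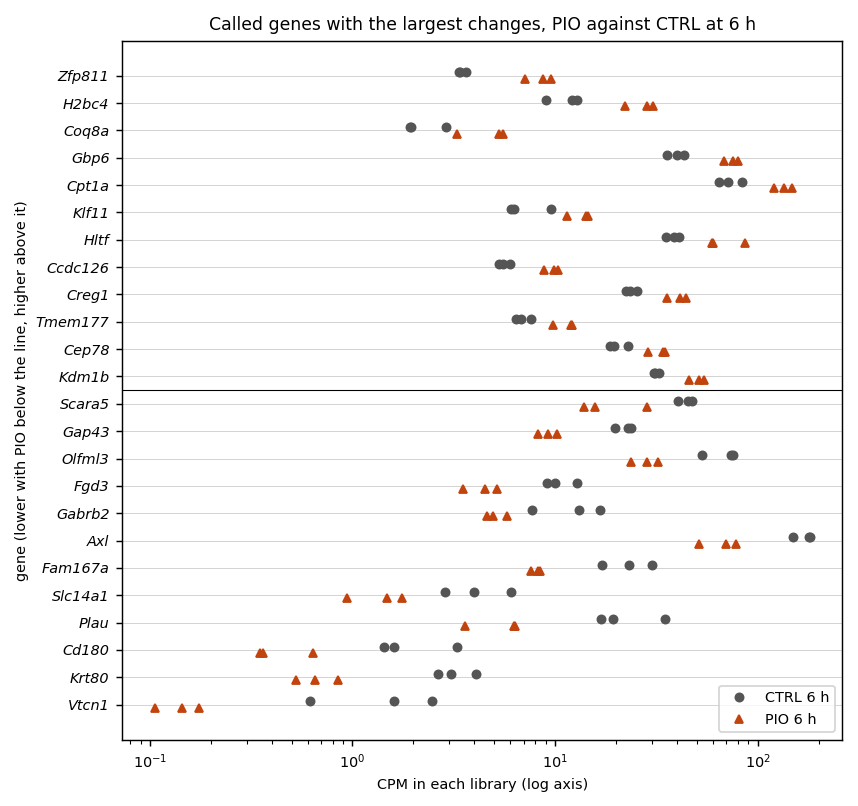
CPM (log axis) in each of the 3 CTRL libraries (circles) and 3 PIO libraries (triangles) at 6 h, for the 12 genes lower and the 12 genes higher with PIO that changed most among the 55 called. In each of the 24 genes the groups do not overlap, from Vtcn1, read at 0.106 to 0.175 CPM with PIO, to Axl, read at 150.1 to 181 CPM in CTRL.

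The receptors themselves were read at low to moderate levels in these explants. Pparg, the receptor of PIO, was at 0.722 to 1.06 RPKM over the 6 libraries, Ppara at 1.12 to 1.46 RPKM and Ppard at 2.96 to 8.32 RPKM, and of the partners Rxra was at 5.21 to 14.9 RPKM, Rxrb at 10.3 to 22.1 RPKM and Rxrg at 0.765 to 2.81 RPKM. In each of these 6 genes the libraries of the groups overlapped. Of the 18 receptors and cofactors tested, 0 passed the test, 5 had an estimate above 0 and the median log2 fold change was -0.09, between -0.14 and 0.00, against a median of 0.00 over all genes, and it was 0.00 without PIO replicate 2. Pparg was read at 2.09, 1.68 and 1.68 CPM in CTRL and 2.02, 2.33 and 2.46 CPM in PIO (log2 fold change 0.32 ± 0.39, adjusted p = 0.728). The estimates of all 8 coactivators were below 0, with the largest for Ppargc1b (-0.56 ± 0.29, adjusted p = 0.363) and Ppargc1a (-0.55 ± 0.27, adjusted p = 0.334), the coactivators of mitochondrial biogenesis.

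Of 55 PPAR target genes listed, 48 were tested and 7 were too low, among them the adipocyte genes Adipoq and Plin1, each read at no more than 3 counts in a library. Cpt1a rose, and it was the only member past the threshold (background 0.147% higher). It was read at 71.2, 83.5 and 64.8 CPM in CTRL and 148, 121 and 136 CPM in PIO (log2 fold change 0.88 ± 0.12, adjusted p = 0.00524), with the lowest PIO library well above the highest CTRL library. Cpt1a lies at chr19:3322326-3385735 (GRCm38), and its reads were counted over its exons. Its level per length rose from 17.0 ± 2.21 to 31.4 ± 3.21 RPKM (SD, n = 3), whereas those of its paralogs Cpt1b and Cpt1c were 3.05 ± 1.06 and 8.76 ± 5.20 RPKM with PIO, and both overlapped with CTRL.

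The 250 bases before the start of 3 genes that passed the test are shown, as RefSeq gives them for GRCm38.p6, because each holds a short motif of a factor known for such genes, in capitals. In Cpt1a (chr19:3323051-3323300, plus strand) the capitals mark AGGTCA, the half-site that PPAR and RXR recognise, found on the opposite strand 94 bases before the start, in Axl (chr7:25788734-25788983, minus strand) GGAATG, the core of the TEAD motif, and in Cnn2 (chr10:79988350-79988599, plus strand) a CArG box, the motif of serum response factor (SRF). The start used is that of 1 RefSeq transcript and can lie inside the span of the gene.
Cpt1a: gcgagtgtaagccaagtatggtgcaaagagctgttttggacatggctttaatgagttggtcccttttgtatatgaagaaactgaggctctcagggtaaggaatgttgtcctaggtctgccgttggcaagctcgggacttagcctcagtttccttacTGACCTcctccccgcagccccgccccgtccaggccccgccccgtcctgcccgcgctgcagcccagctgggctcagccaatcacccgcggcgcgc
Axl: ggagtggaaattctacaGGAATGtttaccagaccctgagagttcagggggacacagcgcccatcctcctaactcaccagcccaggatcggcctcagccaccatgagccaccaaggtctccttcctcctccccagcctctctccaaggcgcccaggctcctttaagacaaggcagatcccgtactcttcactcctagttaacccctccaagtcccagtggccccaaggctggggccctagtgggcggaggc
Cnn2: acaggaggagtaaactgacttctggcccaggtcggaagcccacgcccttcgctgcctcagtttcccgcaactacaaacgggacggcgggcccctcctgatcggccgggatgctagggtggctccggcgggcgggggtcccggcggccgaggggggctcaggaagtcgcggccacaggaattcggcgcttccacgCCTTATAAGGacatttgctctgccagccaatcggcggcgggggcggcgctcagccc
On either strand, AGGTCA was in 13.1% of the 12624 promoters of tested genes. It was in 4 of 20 genes that rose (Cpt1a, Coq8a, Ulk2 and Cep78) and 2 of 19 that fell (Vtcn1 and Sumo3). The direct repeat that PPAR and RXR bind together with AGGTCA and a spacer of 1 base was in 0.0396% of all and in 0 of either group. GGAATG was in 13.2% of all promoters, in 3 of 20 (Cpt1a, Coq8a and Ccdc126) and in 5 of 19 (Axl, Gabrb2, Olfml3, Tmem26 and Sox5). Its match in the Cpt1a sequence above is not in capitals. The CArG box was in 1.37% of all, in 0 of 20 and in 1 of 19. A match of letters is no measure of binding.

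The other PPAR targets had smaller estimates than Cpt1a relative to their error. Of the 15 genes of mitochondrial fatty acid oxidation, Cpt1a included, 13 had an estimate above 0, with a median log2 fold change of 0.31, and 8 were higher at an unadjusted p under 0.05, beside 50.3% above 0 and 8.36% higher over all genes. Etfdh, which passes electrons from fatty acid oxidation to ubiquinone, was read at 36.8, 41.9 and 39.2 CPM in CTRL and 57.2, 66.9 and 53.6 CPM in PIO (log2 fold change 0.59 ± 0.14, adjusted p = 0.0651). Acadl, a long-chain acyl-CoA dehydrogenase, was read at 43.6, 52.3 and 38.6 CPM in CTRL and 55.3, 68.3 and 67.2 CPM in PIO (log2 fold change 0.51 ± 0.12, adjusted p = 0.0695). In both genes the groups did not overlap, as was also the case for Hadha (0.31 ± 0.08, adjusted p = 0.099), the trifunctional protein, and Slc25a20 (0.50 ± 0.15, adjusted p = 0.129), the acylcarnitine carrier. Pdk4, the kinase that inhibits pyruvate dehydrogenase, was read at 13.8, 33.2 and 11.9 CPM in CTRL and 30.5, 44.9 and 34.5 CPM in PIO (log2 fold change 0.90 ± 0.32, adjusted p = 0.191), with overlapping groups. All 8 genes of peroxisomal oxidation and thioesterases had estimates above 0, with a median of 0.23, and 0 passed.

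Genes of uptake, secretion and storage showed no common direction. Of the 9 tested genes of lipid uptake and secretion, 4 had an estimate above 0 (median -0.04). Angptl4, a secreted inhibitor of lipoprotein lipase and a PPAR target in many tissues, had the highest estimate of the list and was read at 5.47, 22.6 and 6.31 CPM in CTRL and 21.4, 26.6 and 35.3 CPM in PIO (log2 fold change 1.28 ± 0.41, adjusted p = 0.156), and CTRL replicate 2 lay above PIO replicate 1, so that the groups overlapped. Slc27a1, a fatty acid transporter, was read at 123, 108 and 85.2 CPM in CTRL and 58.1, 35.4 and 76.8 CPM in PIO (log2 fold change -0.89 ± 0.24, adjusted p = 0.103), with PIO below CTRL in each library. Of the 7 lipid droplet genes, Plin4 was read at 18.8, 20.7 and 13.2 CPM in CTRL and 3.69, 3.07 and 10.3 CPM in PIO (log2 fold change -1.61 ± 0.42, adjusted p = 0.088), also with no overlap, while Plin2, the general droplet coat protein, was near CTRL (-0.24 ± 0.22). Over the whole list, 32 of 48 tested genes had estimates above 0 and the median log2 fold change was 0.17, between 0.05 and 0.24. At an unadjusted p under 0.05, 11 were higher and 3 lower, beside 8.36% and 6.83% of all genes. The 10 genes of cholesterol efflux controlled by the liver X receptors had a median of 0.02, between -0.18 and 0.18, with 5 above 0, and the 33 genes of sterol and fatty acid synthesis a median of -0.11, between -0.15 and 0.04, with 12 above 0. Neither list had a member past the threshold.

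**Figure D2:**
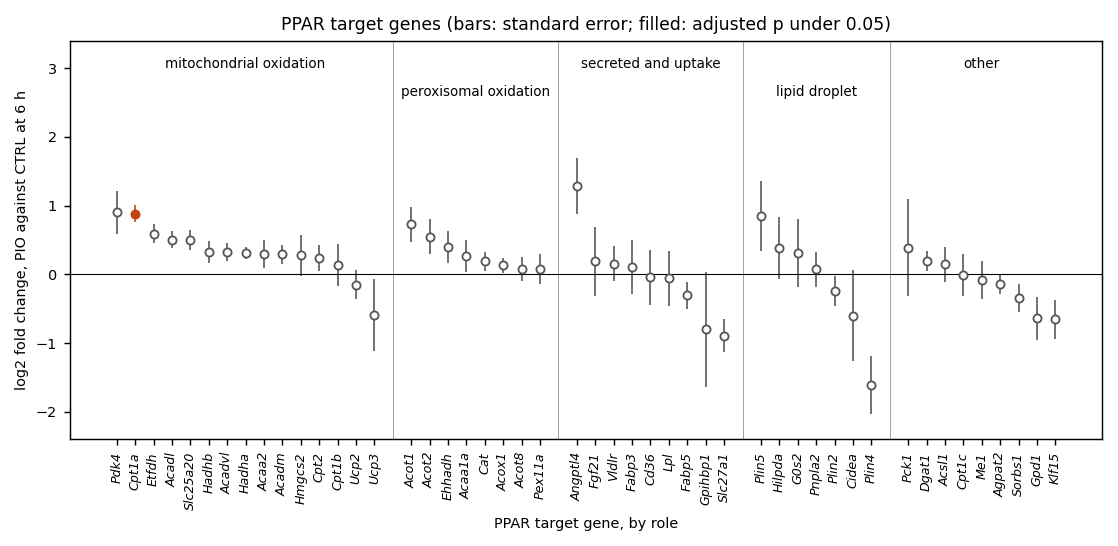
log2 fold changes of the 48 tested PPAR target genes, PIO against CTRL at 6 h, grouped by role, with standard errors as bars. Cpt1a (filled, 0.88) is the only gene past the threshold, 13 of 15 genes of mitochondrial oxidation lie above 0, and Plin4 (-1.61) is the lowest.

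Beside Cpt1a, the genes that rose had various roles. Coq8a, an atypical kinase required for coenzyme Q synthesis, was read at 2.90, 1.94 and 1.92 CPM in CTRL and 5.53, 3.28 and 5.28 CPM in PIO (log2 fold change 1.06 ± 0.22, adjusted p = 0.0461). Klf11, a Krüppel-like repressor and activator of transcription, was read at 6.27, 9.53 and 6.07 CPM in CTRL and 14.6, 11.4 and 14.2 CPM in PIO (log2 fold change 0.88 ± 0.18, adjusted p = 0.0461). Creg1, a glycoprotein of lysosomes, was read at 23.3, 25.4 and 22.4 CPM in CTRL and 35.7, 44.3 and 41.6 CPM in PIO (log2 fold change 0.77 ± 0.12, adjusted p = 0.00665). The inner membrane protease Oma1 (0.63 ± 0.13), the autophagy kinase Ulk2 (0.59 ± 0.09), the enzyme Oga that removes O-GlcNAc from proteins (0.59 ± 0.10) and the nucleotidase Entpd5 of the endoplasmic reticulum (0.67 ± 0.11) rose by 1.5- to 1.59-fold.

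Other genes that rose encode nuclear proteins. Zfp811, a zinc finger protein, was read at 3.38, 3.62 and 3.35 CPM in CTRL and 7.11, 9.53 and 8.76 CPM in PIO (log2 fold change 1.29 ± 0.27, adjusted p = 0.0461). H2bc4, a replication-dependent histone H2B, was read at 12.1, 12.9 and 9.03 CPM in CTRL and 22.2, 28.5 and 30.4 CPM in PIO (log2 fold change 1.25 ± 0.26, adjusted p = 0.0461). Both belong to families with near-identical copies, so that their counts are uncertain. Hltf, a helicase-like factor that remodels stalled replication forks, was read at 38.9, 35.4 and 41.0 CPM in CTRL and 59.8, 87.2 and 60.3 CPM in PIO (log2 fold change 0.84 ± 0.18, adjusted p = 0.0473). Kdm1b, a demethylase of histone H3, was read at 32.5, 31.2 and 30.8 CPM in CTRL and 51.3, 54.3 and 46.0 CPM in PIO (log2 fold change 0.68 ± 0.12, adjusted p = 0.0244). Ctr9, a subunit of the PAF1 elongation complex (0.47 ± 0.09), Lin54 of the DREAM complex (0.54 ± 0.11) and Zfp963 (0.63 ± 0.13, at 14.0, 14.3 and 12.9 CPM in CTRL and 24.2, 22.0 and 17.6 CPM in PIO) rose as well.

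The remaining genes that rose have no common role. Gbp6, an interferon-inducible GTPase, was read at 35.8, 40.1 and 43.2 CPM in CTRL and 79.8, 68.1 and 76.0 CPM in PIO (log2 fold change 0.91 ± 0.19, adjusted p = 0.0461). Cep78, a protein of centrosomes, was read at 18.6, 19.5 and 22.9 CPM in CTRL and 35.1, 34.3 and 28.7 CPM in PIO (log2 fold change 0.69 ± 0.14, adjusted p = 0.0429). Ccdc126 was read at 5.31, 6.00 and 5.51 CPM in CTRL and 8.86, 10.4 and 9.84 CPM in PIO (log2 fold change 0.79 ± 0.15, adjusted p = 0.0307) and Tmem177 at 6.43, 7.59 and 6.79 CPM in CTRL and 12.0, 12.1 and 9.77 CPM in PIO (log2 fold change 0.70 ± 0.15, adjusted p = 0.0482). In each of these genes the lowest PIO library was above the highest CTRL library. Ahi1 (0.58 ± 0.13), a protein of the base of cilia, the thioredoxin-related Tmx4 (0.65 ± 0.14), Tmem18 (0.66 ± 0.14), Tigd2 (0.61 ± 0.12) and Fam120c (0.44 ± 0.09) completed the 24.

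Several of the genes that fell encode proteins of the cell surface or secreted proteins. Plau, which encodes urokinase and activates plasminogen outside the cell, was read at 19.3, 34.8 and 16.8 CPM in CTRL and 3.60, 6.35 and 6.29 CPM in PIO (log2 fold change -2.12 ± 0.32, adjusted p = 0.00665), a 4.35-fold fall. It lies at chr14:20836662-20843388. Axl, a receptor tyrosine kinase of the TAM family that restrains innate immune signalling, lies at chr7:25756500-25788924 and was read at 180.1, 181 and 150.1 CPM in CTRL and 69.8, 51.4 and 78.5 CPM in PIO (log2 fold change -1.35 ± 0.21, adjusted p = 0.00746). Olfml3, a secreted protein of the matrix, was read at 75.9, 74.2 and 53 CPM in CTRL and 28.6, 32.1 and 23.7 CPM in PIO (log2 fold change -1.27 ± 0.21, adjusted p = 0.0086). Pdgfra, the PDGF receptor of mesenchyme (chr5:75151322-75198206), was read at 389, 390.2 and 352 CPM in CTRL and 188, 219.9 and 239 CPM in PIO (log2 fold change -0.81 ± 0.14, adjusted p = 0.0142). Scara5, a scavenger receptor for ferritin, was read at 47.4, 40.4 and 45.5 CPM in CTRL and 13.9, 15.8 and 28.3 CPM in PIO (log2 fold change -1.19 ± 0.25, adjusted p = 0.0461). PIO replicate 3 was the nearest to CTRL in Axl, Pdgfra and Scara5.

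Components of the cytoskeleton fell too. Krt19, a keratin of simple epithelia, was read at 49.8, 47.6 and 59.1 CPM in CTRL and 27.5, 24.0 and 26.6 CPM in PIO (log2 fold change -1.0 ± 0.14, adjusted p = 0.00524) and lies at chr11:100140810-100145926. Krt80 was read at 3.06, 4.06 and 2.63 CPM in CTRL and 0.526, 0.847 and 0.651 CPM in PIO (log2 fold change -2.26 ± 0.42, adjusted p = 0.027), that is at 38, 46 and 33 counts in CTRL and 6, 8 and 9 in PIO. Cnn2, a calponin that binds actin, was read at 47.3, 46.6 and 61.7 CPM in CTRL and 26, 20.3 and 35.8 CPM in PIO (log2 fold change -0.92 ± 0.19, adjusted p = 0.0461). Krt19 had the tightest PIO libraries of the 3. Tgfb1i1 (Hic-5), a protein of focal adhesions, fell by 1.17 ± 0.24 on the log2 scale. Ank3, ankyrin G, which ties membrane proteins to spectrin, fell by 0.87 ± 0.14, and Fgd3, an exchange factor for the GTPase Cdc42, was read at 10.1, 9.09 and 12.8 CPM in CTRL and 5.18, 3.49 and 4.49 CPM in PIO (log2 fold change -1.27 ± 0.27, adjusted p = 0.0464).

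Further genes that fell had no common role. Vtcn1, a B7 family protein that inhibits T cells, was read at 20, 7 and 31 counts in CTRL and 2, 1 and 2 in PIO. Over the summed counts of 58 and 5, the CTRL level was 10.8 times that of PIO, with an exact 95% interval of 4.38 to 34.6 that covers counting error only. Cd180, a relative of the Toll-like receptors, was read at 20, 37 and 18 counts in CTRL and 4, 6 and 5 in PIO, 1.61, 3.26 and 1.44 CPM in CTRL and 0.351, 0.635 and 0.362 CPM in PIO (log2 fold change -2.23 ± 0.44, adjusted p = 0.0429). Gap43, a protein of growing axons, was read at 23.7, 19.7 and 22.9 CPM in CTRL and 10.2, 9.21 and 8.25 CPM in PIO (log2 fold change -1.26 ± 0.23, adjusted p = 0.0244). Gabrb2, a subunit of GABA-A receptors, was read at 13.2, 7.67 and 16.6 CPM in CTRL and 4.91, 5.82 and 4.63 CPM in PIO (log2 fold change -1.29 ± 0.28, adjusted p = 0.0482), and the CTRL libraries of Gabrb2 differed more among themselves than the PIO libraries did. Slc14a1, a urea transporter, was read at 6.03, 3.97 and 2.88 CPM in CTRL and 1.75, 1.48 and 0.941 CPM in PIO (log2 fold change -1.63 ± 0.34, adjusted p = 0.0461). Fam167a was read at 17.0, 30.0 and 23.1 CPM in CTRL and 8.42, 7.62 and 8.25 CPM in PIO (log2 fold change -1.52 ± 0.28, adjusted p = 0.0295).

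The other 14 genes that fell had log2 fold changes between -1.15 and -0.40. They include the synaptic adhesion protein Lrrc4 (-1.14 ± 0.22), the cAMP phosphodiesterase Pde7b (-1.06 ± 0.21), the membrane proteins Emp3 (-1.03 ± 0.21), Plp2 (-0.66 ± 0.13), Ptchd1 (-1.01 ± 0.21), Tmem26 (-1.06 ± 0.22) and Tmem198b (-1.15 ± 0.18), and the mitochondrial D-lactate dehydrogenase Ldhd (-0.97 ± 0.21). The chromatin remodeller Chd3 (-0.82 ± 0.16), the transcription factor Sox5 (-0.78 ± 0.16), the centrosomal protein Tacc2 (-0.66 ± 0.12), the protein modifier Sumo3 (-0.40 ± 0.09), Ccdc9b (-1.05 ± 0.17) and 1 gene matched to no symbol (-0.84 ± 0.15) complete them.

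Lists of genes of the cytoskeleton, matrix and growth factor response lay mostly below 0, beside a median of 0.00 and 50.3% of estimates above 0 over all genes tested. Among targets of SRF, the factor that couples actin dynamics to contractile genes, 1 of 21 tested genes had an estimate above 0 and the median log2 fold change was -0.57, between -0.80 and -0.49. Cnn2 was the 1 member past the threshold (background 0.19% lower). At an unadjusted p under 0.05 the number of higher genes was 1 and of lower genes 13, beside 8.36% and 6.83% of all genes. Tpm2, a tropomyosin, was read at 18.3, 13.2 and 17.6 CPM in CTRL and 7.20, 7.52 and 11.7 CPM in PIO (log2 fold change -0.89 ± 0.22, adjusted p = 0.0767). Filamin A (Flna, -0.60 ± 0.16, adjusted p = 0.0953), zyxin (Zyx, -0.86 ± 0.24, adjusted p = 0.114) and Tpm1 (-0.50 ± 0.14, adjusted p = 0.116) likewise had no overlap of libraries and missed the threshold. The mean log2 CPM of the list ranged from 5.12 to 5.42 in CTRL and from 4.49 to 4.81 in PIO, so the groups did not overlap. Pericyte and smooth muscle markers, which share 2 tested genes with this list (Acta2 and Myh11), had a median of -0.57, and their summed level ranged from 496 to 743 CPM in CTRL and from 346 to 565 CPM in PIO.

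Feedback genes of the FGF and ERK pathway, which dampen the signal that induces them, also lay mostly below 0. In this list 1 of 14 tested genes had an estimate above 0 and the median log2 fold change was -0.59, between -0.71 and -0.46. Of these, 0 passed. At an unadjusted p under 0.05 the number of higher genes was 0 and of lower genes 9, beside 8.36% and 6.83% of all genes. Etv4, a transcription factor induced by FGF, was read at 11.1, 13.6 and 12.4 CPM in CTRL and 6.05, 4.13 and 7.74 CPM in PIO (log2 fold change -1.04 ± 0.32, adjusted p = 0.145). Spry4, an inhibitor of receptor signalling, was read at 32.9, 64.6 and 26.2 CPM in CTRL and 21.1, 18.2 and 20.3 CPM in PIO (log2 fold change -1.05 ± 0.39, adjusted p = 0.216). PIO was below CTRL in each library of these genes, but neither passed. The list's mean log2 CPM ranged from 4.98 to 5.50 in CTRL and from 4.46 to 4.65 in PIO. Of immediate early genes, the first to respond to serum and stress, 2 of 30 tested genes had an estimate above 0 and the median log2 fold change was -0.40, between -0.52 and -0.21, with 0 past the threshold.

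Targets of the Hippo effector YAP and its partner TEAD had 2 of 22 estimates above 0 and a median of -0.22, between -0.35 and -0.15. Axl was their 1 member past the threshold (background 0.19% lower). Igfbp3 was read at 632, 657 and 559.7 CPM in CTRL and 326, 365 and 327 CPM in PIO (log2 fold change -0.86 ± 0.26, adjusted p = 0.137), while the classical target Ccn2 overlapped between the groups (-0.82 ± 0.34, adjusted p = 0.261). Among TGF-beta targets, 5 of 23 tested genes had an estimate above 0 and the median log2 fold change was -0.35, between -0.36 and -0.16, with 0 past the threshold, and Tgfbi was read at 1134, 1021 and 894 CPM in CTRL and 619, 559.5 and 502 CPM in PIO (log2 fold change -0.86 ± 0.25, adjusted p = 0.128). The median was -0.16 without PIO replicate 2. Of 43 collagens, 6 had estimates above 0 (median -0.41, between -0.72 and -0.33) and 0 passed. Col6a3 had the lowest p among them and was read at 677, 440.3 and 573 CPM in CTRL and 217, 156 and 278 CPM in PIO (log2 fold change -1.38 ± 0.39, adjusted p = 0.117).

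Matrix proteases and their inhibitors, with Plau past the threshold (background 0.19% lower), had 6 of 44 estimates above 0 and a median of -0.36, between -0.53 and -0.32. In this list at an unadjusted p under 0.05 the number of higher genes was 0 and of lower genes 15, against 6.83% of all genes lower. Timp3, an inhibitor of metalloproteinases, was read at 1237, 1211 and 791 CPM in CTRL and 677, 673 and 631 CPM in PIO (log2 fold change -0.71 ± 0.18, adjusted p = 0.0767) and Adamts14, a collagen-processing protease, at 33.5, 21.6 and 55.7 CPM in CTRL and 18.0, 9.64 and 20.3 CPM in PIO (log2 fold change -1.20 ± 0.27, adjusted p = 0.0542), with no overlap in either. Of 50 keratins listed, 13 were tested, of which Krt19 and Krt80 fell and 2 had estimates above 0. The background was 0.19% of genes lower. The median of the keratins was -0.86, between -1.06 and -0.11, the latter when the keratins below the filter on low counts were kept. Krt8 (-0.75 ± 0.18, adjusted p = 0.0767) and Krt18 (-0.57 ± 0.22, adjusted p = 0.244), the keratin pair of simple epithelia, did not overlap between the groups. In the Notch pathway 1 of 20 estimates was above 0 (median -0.32, between -0.51 and -0.10, -0.19 without PIO replicate 2), and of Wnt targets 2 of 15 (median -0.17, between -0.47 and -0.10). Neither had a member past the threshold.

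**Figure D3:**
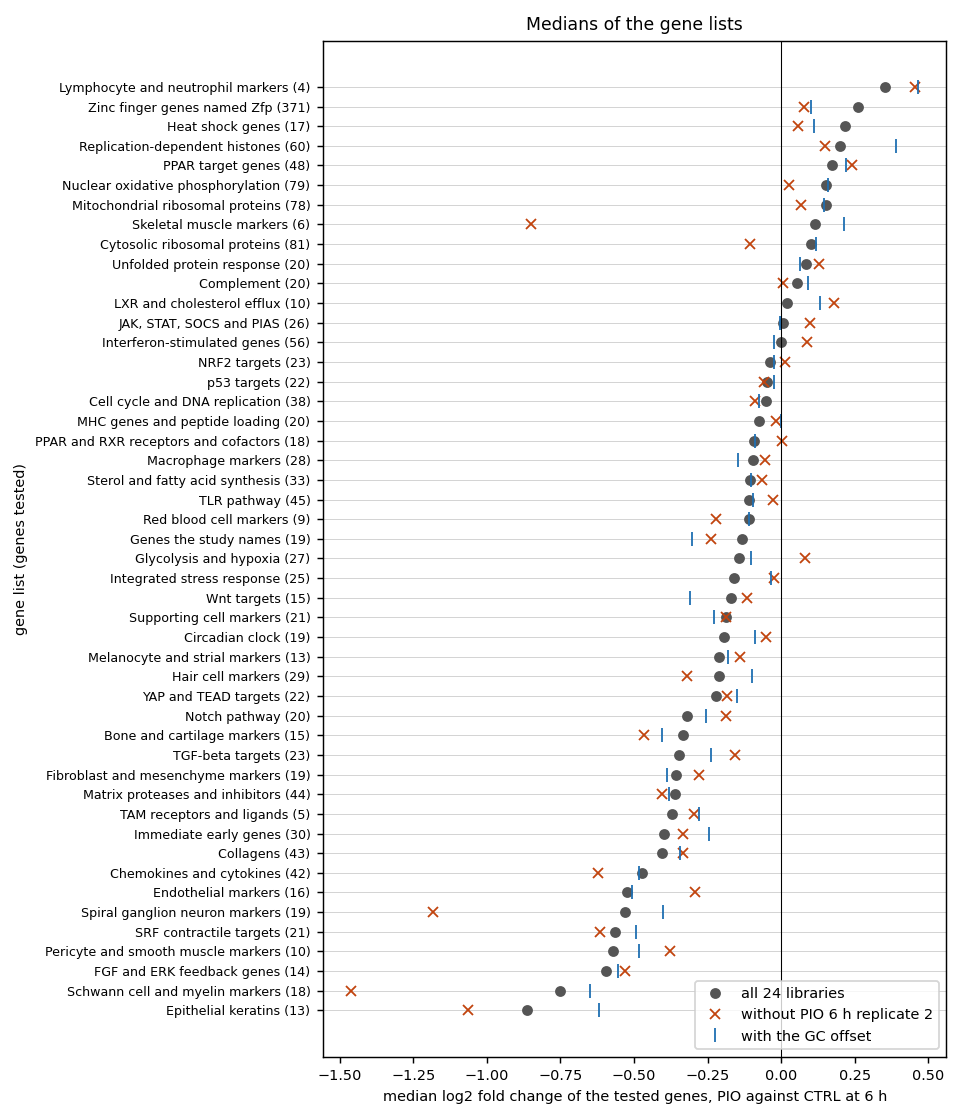
Median log2 fold change of the tested genes of each gene list, PIO against CTRL at 6 h, in the model of all 24 libraries (circles), without PIO replicate 2 (crosses) and with an offset for GC content (vertical ticks). The number of genes tested is in parentheses. Keratins (-0.86), Schwann cell and myelin markers (-0.75), ERK feedback genes (-0.59) and SRF targets (-0.57) are among the lowest, and crosses stand far from circles for Schwann cell, neuron and skeletal muscle markers.

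Genes of Toll-like receptors (TLRs) and of STAT signalling are those the study's title names, and with PIO alone at 6 h no gene of either list passed the test. Of 45 TLR pathway genes tested, 15 had estimates above 0 and the median was -0.11, between -0.34 and 0.06. The 14 receptors among them had a median of -0.23, with 2 above 0. Irak3, an inhibitor of TLR signalling, had the lowest p of the list and was read at 29.2, 37.7 and 22.4 CPM in CTRL and 20.1, 17.1 and 21.4 CPM in PIO (log2 fold change -0.61 ± 0.20, adjusted p = 0.168). Tlr2 (-0.41 ± 0.27), Tlr4 (-0.13 ± 0.23), the adaptor Tirap (-0.29 ± 0.17) and Rela (-0.46 ± 0.22) overlapped between the groups. Of 26 JAK, STAT, SOCS and PIAS genes, 14 had estimates above 0 (median 0.01, between -0.08 and 0.10). Pias1, a SUMO ligase of the PIAS family, was read at 59.8, 53.2 and 53.9 CPM in CTRL and 66.2, 75.4 and 65.8 CPM in PIO (log2 fold change 0.31 ± 0.12, adjusted p = 0.224), above CTRL in each PIO library.

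Among interferon-stimulated genes, 28 of 56 estimates were above 0 and the median was 0.00, which ranged from -0.27 without CTRL replicate 3 to 0.48 without CTRL replicate 2. Gbp6 was the only one past the threshold (background 0.147% higher). Its adjusted p was up to 0.16 when 1 library was left out, 0.083 with the GC offset and 0.051 with the receptor gene covariate. Irf7, a factor that amplifies the interferon response, had a wide error (0.47 ± 0.62). Chemokines, cytokines and adhesion genes had 8 of 42 estimates above 0 and a median of -0.47, between -0.74 and -0.02. Of these, 0 passed the threshold. At an unadjusted p under 0.05 the number of higher genes was 3 and of lower genes 8, beside 8.36% and 6.83% of all genes. Without CTRL replicate 2, the median of this list was -0.02. Il16, a chemoattractant of CD4+ cells, was read at 38.6, 47.8 and 46.8 CPM in CTRL and 24.9, 23.6 and 13.2 CPM in PIO (log2 fold change -1.11 ± 0.33, adjusted p = 0.128). Ccl9 was read at 3.38, 10.9 and 4.31 CPM in CTRL and 2.02, 1.48 and 2.82 CPM in PIO (log2 fold change -1.53 ± 0.49, adjusted p = 0.155), and Ccl25 at 2.73, 3.18 and 2.40 CPM in CTRL and 4.39, 8.05 and 4.85 CPM in PIO (log2 fold change 1.05 ± 0.29, adjusted p = 0.105), the latter above CTRL. The libraries of the groups did not overlap in these 3 genes. Of the TAM receptors and their ligands, Axl fell (background 0.19% lower), and the other 4 genes did not pass. Pros1 (-0.55 ± 0.17, adjusted p = 0.144), Mertk (-0.26 ± 0.15) and Gas6 (-0.37 ± 0.61) had estimates below 0, and Tyro3 was near CTRL.

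Lists that lay mostly above 0 held zinc finger, mitochondrial and histone genes. Of 371 zinc finger genes named Zfp, 276 had estimates above 0 (median 0.26, between 0.08 and 0.36). Zfp811 and Zfp963 rose (background 0.147% higher). At an unadjusted p under 0.05, 94 were higher and 13 lower, beside 8.36% and 6.83% of all genes. Of nuclear genes of oxidative phosphorylation 68 of 79 (median 0.15, between 0.03 and 0.25), of mitochondrial ribosomal proteins 61 of 78 (median 0.15, between 0.07 and 0.19) and of replication-dependent histones 44 of 60 (median 0.20, between -0.06 and 0.47) had estimates above 0, with H2bc4 the 1 member past the threshold. The median of the histones was below 0 without CTRL replicate 1 (-0.01) or PIO replicate 3 (-0.06). Without PIO replicate 2, the medians were 0.08 for the Zfp genes, 0.03 for oxidative phosphorylation and 0.07 for mitochondrial ribosomal proteins. Estimates also followed base composition: the median log2 fold change went from 0.20 in the fifth of genes with the lowest GC content of the transcript to -0.19 in the highest, with Spearman's rho of -0.39 across 15389 genes, which are not independent replicates. The Zfp genes had a median GC content of 44.0%, against 49.8% for all tested genes, 46.4% for the 24 genes that rose and 50.6% for the 31 that fell. Several lists below 0 were richer in GC, with medians of 55.3% for keratins, 55.1% for collagens and 55.5% for the Notch pathway. Immediate early genes had 54.5%, SRF targets 53.1% and YAP and TEAD targets 51.3%. Other lists below 0 were no richer than all genes, with 49.7% for chemokines and cytokines, 49.7% for neuron markers and 48.7% for fibroblast markers. The histones and the PPAR targets, which lay above 0, had 58.35% and 52.5%. With an offset for GC content in each library, 208 genes passed, 115 higher and 93 lower, 51 of the 55 among them, and the medians were 0.10 for the Zfp genes, -0.25 for immediate early genes, -0.15 for YAP and TEAD targets, -0.49 for SRF targets and -0.62 for keratins. With receptor gene counts as a covariate, 41 passed, 39 of the 55 among them. The part of GC content, receptor gene counts and PIO replicate 2 in these lists was not tested further.

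**Figure D4:**
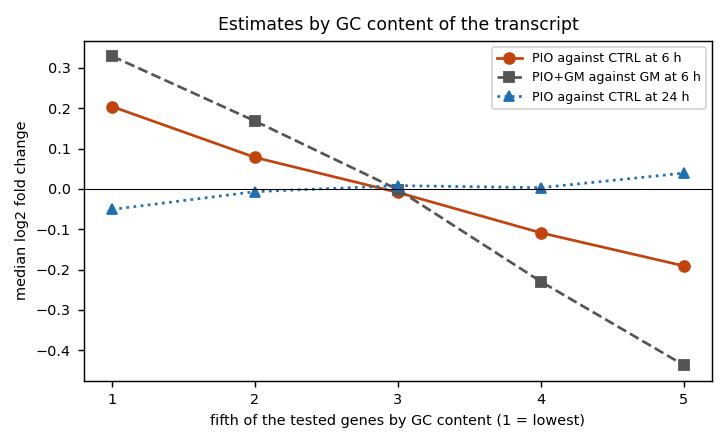
Median log2 fold change in 5 equal bins of the tested genes by GC content of the longest transcript, for PIO against CTRL at 6 h (circles), PIO + GM against GM at 6 h (squares) and PIO against CTRL at 24 h (triangles). The medians fall from 0.20 to -0.19 and from 0.33 to -0.44 in the comparisons at 6 h, and go from -0.05 to 0.04 at 24 h.

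Markers of cell types were compared because the explants hold more than the sensory epithelium. Of 29 hair cell markers, 0 passed the test, 10 had estimates above 0 (median -0.21, between -0.49 and 0.04), and their summed level ranged from 1075 to 2169.6 CPM in CTRL and from 1188 to 1885 CPM in PIO. Supporting cell markers ranged from 6419.8 to 14014 CPM in CTRL and from 7395 to 12483 CPM in PIO and macrophage markers from 131 to 273 CPM in CTRL and from 106 to 217 CPM in PIO, and 0 passed in either. Their medians were -0.19 (from -0.38 to 0.19 over the settings) and -0.10 (from -0.34 to 0.37). The summed levels of these 3 lists overlapped between the groups. Schwann cell and myelin markers had 0 of 18 estimates above 0 (median -0.75, between -1.46 and -0.53) and ranged from 1370.5 to 2841 CPM in CTRL and from 865 to 2210.4 CPM in PIO, with PIO replicate 2 the highest of its group. Neuron markers had 2 of 19 above 0 (median -0.53, between -1.18 and -0.24), with Gap43 past the threshold (background 0.19% lower). They ranged from 766 to 912 CPM in CTRL and from 499 to 975 CPM in PIO. Without PIO replicate 2 these 2 medians were -1.46 and -1.18. Endothelial markers had 0 of 16 above 0 (median -0.53, between -1.06 and -0.23, -0.29 without PIO replicate 2). Their summed level ranged from 394 to 739.5 CPM in CTRL and from 297 to 555 CPM in PIO. Pericyte markers had 2 of 10 above 0 (median -0.57, between -0.93 and -0.38). Fibroblast markers had 7 of 19 (median -0.36, between -0.44 and -0.18), with Pdgfra past the threshold (background 0.19% lower). The fibroblast sum ranged from 4703 to 7442 CPM in CTRL and from 4029.9 to 5726 CPM in PIO. Gap43, Pdgfra, Axl and genes of the matrix and the contractile apparatus are known to be expressed in such cells, and the part of the cell makeup of the explants in their fall was not tested. Bone and cartilage, melanocyte, red blood cell, lymphocyte and muscle markers had 0 members past the threshold.

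The following lists of stress, metabolism and immunity had no member past the threshold. Their medians, with their lowest and highest values over the 17 other settings in parentheses, were 0.22 for heat shock genes (0.06 to 0.32), 0.08 for the unfolded protein response (-0.01 to 0.20), -0.16 for the integrated stress response (-0.19 to -0.02), -0.04 for NRF2 targets (-0.09 to 0.01), -0.05 for p53 targets (-0.10 to 0.09), -0.14 for glycolysis and hypoxia (-0.72 to 0.08), -0.05 for the cell cycle (-0.21 to 0.15), -0.19 for the circadian clock (-0.29 to -0.04), 0.06 for complement (-0.10 to 0.31), -0.07 for MHC genes (-0.29 to 0.17) and 0.10 for cytosolic ribosomal proteins (-0.11 to 0.20). Dnajb1, a cochaperone, had the lowest p among heat shock genes and was read at 48.5, 46.7 and 45.6 CPM in CTRL and 62.8, 50.4 and 89.6 CPM in PIO (log2 fold change 0.53 ± 0.17, adjusted p = 0.144).

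The 55 genes were then read in the 2 comparisons that share no library with this one. In PIO + GM against GM at 6 h, where 216 of 16317 genes passed (1.32%), the estimate had the same sign in 55 of the 55, against 75.6% of all genes tested, and 34 passed in the same direction. With only the 12 libraries of 6 h or the 6 compared, 0 genes passed in this comparison. The 216 calls fell to 12, 33 and 35 without GM replicate 1, 2 or 3. They fell to 4 and 6 without PIO + GM replicate 2 or 3, and were 4053 without PIO + GM replicate 1. PIO + GM replicate 3 had the lowest total of the series (7211357 counts) and read 260 CPM over the olfactory and vomeronasal receptor genes, against 89.3 and 136 CPM in the other PIO + GM libraries and 51.4 to 123 CPM in GM, and with these receptor counts as a covariate 31 of the 16317 genes passed. Of the 55, 51 had an unadjusted p under 0.05, against 25.0% of all genes. Their medians were 0.55 for the 24 genes that rose and -1.07 for the 31 that fell, beside 0.68 and -1.06 without GM. Cpt1a (0.77 ± 0.12, adjusted p = 0.00721), Axl (-1.32 ± 0.21, adjusted p = 0.00721), Plau (-1.83 ± 0.31, adjusted p = 0.00976), Krt19 (-0.89 ± 0.14, adjusted p = 0.00721), Cnn2 (-1.28 ± 0.20, adjusted p = 0.00721) and Pdgfra (-0.82 ± 0.14, adjusted p = 0.00834) were among the 34. Vtcn1 (-0.95 ± 0.58, adjusted p = 0.299), Tmem26 (-0.31 ± 0.22, adjusted p = 0.38) and Tmem177 (0.18 ± 0.15, adjusted p = 0.454) were not. Both comparisons at 6 h followed GC content in the same direction.

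At 24 h, where 25 genes passed (0.153%), the estimate had the same sign in 55 of the 55, against 62.1% of all genes, with smaller absolute values in 50, beside 40 in PIO + GM against GM at 6 h. The 55 were chosen for their estimates at 6 h, so that smaller values elsewhere are no measure of an effect of time. The 25 calls were 10, 51 and 2 without CTRL replicate 1, 2 or 3 and 12, 2 and 3 without PIO replicate 1, 2 or 3 of 24 h. Of the 55, 41 had an unadjusted p under 0.05, against 9.93% of all genes. The medians were 0.31 for the genes that rose at 6 h and -0.60 for those that fell. Cpt1a (1.12 ± 0.12, adjusted p = 0.00017), Klf11 (1.03 ± 0.18, adjusted p = 0.0188), Gap43 (-1.27 ± 0.23, adjusted p = 0.0293) and Chd3 (-0.95 ± 0.16, adjusted p = 0.017) passed at both times. Angptl4, which overlapped at 6 h, had 3.35 at 24 h (adjusted p = 0.00176). Gbp6 was at 0.00 ± 0.19 at 24 h. GC content and the estimates ran the other way at 24 h, with Spearman's rho of 0.12.

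Differences between the effects were tested as interactions. Between 6 and 24 h, edgeR's quasi-likelihood test found 0 genes, with 714 at an unadjusted p under 0.05, while DESeq2's Wald test and edgeR's likelihood ratio test found 1, Ecm2, a matrix protein with log2 fold changes of 0.48 at 6 h and -1.80 at 24 h. Of the 55 genes, 26 had an unadjusted p under 0.05 in this contrast, from which nothing is read, since the libraries of 6 h that chose them enter it. Between PIO with and without GM at 6 h, 0 genes passed by each of these 3 tests, with 293 at an unadjusted p under 0.05 by the quasi-likelihood test. The smaller values at 24 h were therefore not shown to differ from those at 6 h for any single gene by the main test.

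**Figure D5:**
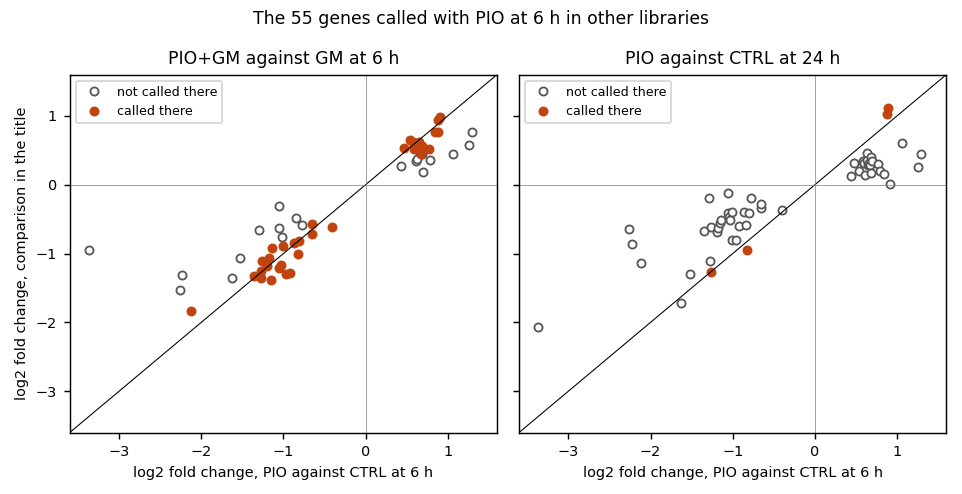
log2 fold change of the 55 genes called with PIO at 6 h (horizontal axes) against the estimate in PIO + GM against GM at 6 h (left) and in PIO against CTRL at 24 h (right), which use other libraries. Filled points were called in the comparison on the vertical axis, 34 on the left and 4 on the right, and the line marks equal values. All 55 points have the same sign on both axes in each panel, and 40 on the left and 50 on the right lie nearer to 0 than in PIO against CTRL at 6 h.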

How the data were processed

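RNA from 6 pooled OCs per library was sequenced after a stranded total RNA preparation, in 3 libraries for each of 8 groups. The counts are those the authors deposited: reads were mapped with STAR and counted with QuasR wherever they started in an exon of a RefSeq gene, on mm10 as the submitters' processing notes give it. Strand use and the treatment of reads with several positions are not given in the sources used here. The members and gene lists were chosen with earlier results of these data known.

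From these counts, edgeR 4.0.16 in R 4.3.3 fitted 1 mean for each of the 8 groups over all 24 libraries (TMM scaling, filterByExpr, quasi-likelihood test), and p-values were adjusted by Benjamini and Hochberg over 16317 genes, with a threshold of 0.05. Values of log2 CPM used a prior count of 2, whereas fold changes were those of the quasi-likelihood fit at its default. Standard errors were derived from the F statistic, and CPM were scaled by TMM factors (0.961 to 1.038). RPKM are these CPM per kilobase of the gene length given with the deposited counts. Interactions were contrasts of the same model. Values in every library are given for the 12 genes of each direction with the largest changes among those called whose groups do not overlap, and for called members of the 48 lists. Beyond these, up to 4 genes with the lowest p per list or interaction, defining markers, and members of the PPAR, TLR, STAT and TAM lists or genes the study names could be named. Counts were also simulated for this comparison (16096 genes, of which 200 were changed). In them 91.9% of genes changed by 2 on the log2 scale and 62.4% of those changed by 1 were recovered. Of 159 calls, 5 were of genes that had not been changed. The simulation held the fitted dispersions but no trend with GC content and no deviating library. It therefore cannot show how many calls on the measured counts are false. Gene positions and sequences are RefSeq's for GRCm38.p6. GC content was that of the longest GENCODE transcript, known for 15389 of the tested genes.

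Replicates differed from each other beyond sampling noise, and all were kept. Alternatives were other scalings, filters, tests (DESeq2 1.42.0) and sets of libraries, a block for the replicate number, and, chosen after seeing the data, a covariate of olfactory and vomeronasal receptor gene counts and a GC offset. The tables and figures were made with pandas 2.3.3, numpy 2.4.6 and matplotlib 3.10.9. Totals lay between 9568348 and 13849198 counts in the CTRL and PIO libraries of 6 h, and between 7211357 and 15548856 counts over all 24 libraries.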

Additional observations from a re-analysis of the deposited data

How the results depend on the processing

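The number of genes called with PIO at 6 h, 55, was 22 with no filter on low counts, 95 (61 higher and 34 lower) when each library had to hold at least 10 counts of a gene, 383 by DESeq2's Wald test, 211 by edgeR's likelihood ratio test, 208 with the GC offset, and 0 with only the 12 or the 6 libraries. Without 1 library at a time it ranged from 6 to 120. The 25 calls of PIO at 24 h were 16, 162, 148, 95, 76 and 8 with no filter, by DESeq2, by the likelihood ratio test, with the GC offset and with the 12 or 6 libraries of that time, 11 with the receptor gene covariate, and 2 to 51 without 1 library. The 216 calls of PIO + GM against GM were 350 with at least 10 counts, 75 with no filter, 1330 by DESeq2, 670 by the likelihood ratio test, 0 with 12 or 6 libraries, 31 with the covariate, 124 with the GC offset, and 4 to 4053 without 1 library. The interaction with time had 1 call by DESeq2, by the likelihood ratio test and with the replicate block. The interaction with GM had 0 calls under each alternative run. The cause of these differences was not tested, except that fewer genes or libraries enter some fits by construction.

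With the replicate block, the calls were 371 (171 higher and 200 lower, all 55 among them) with PIO at 6 h, 241 at 24 h and 1990 for PIO + GM. The samples share only a number: deviations of same-numbered CTRL and PIO libraries at 6 h correlated with r of 0.29, 0.20 and -0.14, and replicate 3 of PIO correlated best with another number.

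All 55 genes kept their direction and an unadjusted p under 0.05 in each setting that tested them. Of the other genes named, Plin2 ranged from -0.43 to 0.11 and Tlr4 from -0.27 to 0.10 without 1 library, with values on the other side of 0 without CTRL replicate 2 for both and without PIO replicate 1 for Tlr4 (0.03). Of 48 list medians, 25 had 1 sign in each setting and 23 had the other sign in at least 1. Genes read at a few counts, such as Vtcn1, are measured with wide counting error.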
